A study of Homo sapiens with 8 samples.

Results

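The regions described here are the stretches of the genome where, in DU145 cells, ETS1 peaks coincided with GABPA peaks and with no peak of ELF1, ELK4 or JUND. They were chosen by overlap of the deposited peak lists: a peak of the first ETS1 list had to share at least 1 bp with a peak of the second ETS1 list and with a GABPA peak, and had to touch no ELF1, ELK4 or JUND peak. Of 8183 ETS1 peaks present in both ETS1 lists, 1965 met the rule, which is 24.0% (95% Clopper-Pearson interval 23.09 to 24.95%). The overlap with GABPA and the absence of the other factors are therefore given and are not findings. All intervals below cover counting error only.

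The study mapped transcription factors by chromatin immunoprecipitation and sequencing (ChIP-seq), in which an antibody pulls down DNA bound by a factor and enriched stretches are reported as peaks. It has 8 samples with 1 sample per group: ETS1, ELF1, ELK4, GABPA and JUND immunoprecipitations and an input from DU145, an established prostate cancer line, and an ETS1 immunoprecipitation and an input from PANC1, an established pancreatic cancer line. The sample labels name no treatment, genotype or replicate. They describe DU145 culture in serum with antibiotics, and puromycin only where cells were selected, without saying for which samples; the same culture text, naming DU145, stands beside the PANC1 samples. The inputs were not used here, and the DU145 ETS1 sample has 2 lists. The second list carries the mark R2 in its name, which may or may not stand for a second replicate, and the labels do not explain it, so both lists were counted as 1 sample.

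ETS factors share a DNA-binding domain that recognises a GGAA core, and many family members can occupy the same high-affinity sites. GABPA binds DNA as the ETS subunit of GA-binding protein, whose partner GABPB carries the activation domain, and it is best known at promoters of broadly expressed genes, among them genes of mitochondria and of the ribosome. ETS1 is held back by its own autoinhibitory segments, binds with partners such as RUNX factors, and is a target of ERK phosphorylation. ELF1 and ELK4 are further ETS factors, and ELK4 can act together with serum response factor. JUND is a subunit of AP-1, a dimeric factor that can bind beside ETS proteins. The title of the series names ETS1 as an effector of the RAS/ERK pathway, and regions with GABPA alone bear on how far ETS1 shares its sites with a second ETS factor.

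GABPA alone was the usual state of an ETS1 region that held GABPA at all. Among the ETS1 regions with a GABPA peak, 85.4% (83.8 to 86.8%) met no further list. This is not particular to GABPA, since most ETS1 regions without GABPA also met none of the ELF1, ELK4 and JUND lists. Of all 8183 ETS1 regions, 5387 met no other list and 307 met JUND and no other ETS factor. A further 137 regions also held ELK4, 105 ELF1, 20 both ELF1 and ELK4, and 56 JUND without another ETS factor. The word alone is limited by the length of the lists. ELF1 contributed 256 peaks, ELK4 337 and JUND 1308, against 2478 for GABPA, so a region without a listed peak may still have been bound below the level at which peaks were called. The 1965 regions took up 1969 GABPA peaks, 79.5% (77.8 to 81.0%) of that list.

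The GABPA and ETS1 window centres lay within 100 bp of each other in most of these regions. The second ETS1 list and the GABPA list both hold windows of about 500 bp (medians of 497 bp each), so the distance between window centres measures how near the 2 peaks lie. Over the 1965 regions the GABPA centre lay a median of 73 bp from the ETS1 centre, with quartiles of 29 and 149 bp and a 95% binomial interval of the median from 67 to 78 bp. The centres lay within 50 bp in 759 regions (38.6%), within 100 bp in 1194 (60.8%) and within 200 bp in 1680 (85.5%). In 37 regions they were over 500 bp apart. The GABPA window overlapped the ETS1 window in 1928 regions and lay wholly inside the wider interval of the first ETS1 list in 1914. These distances describe the lists and were not tested, since GABPA overlap chose the regions.

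**Figure D1:**
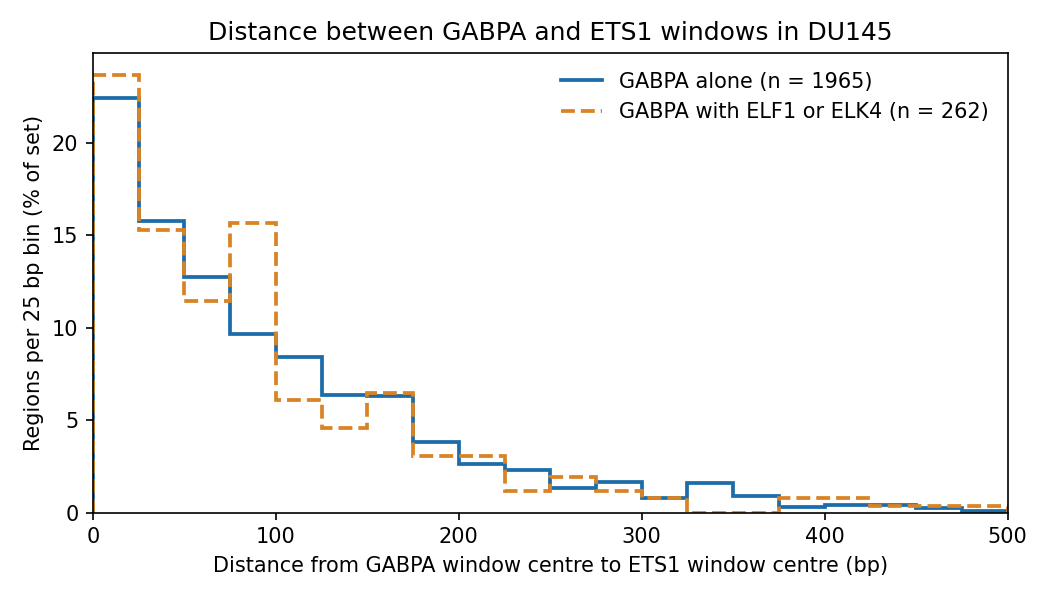
Distance in bp from the GABPA window centre to the nearest ETS1 window centre of the second list (x axis), as the percentage of regions in each 25 bp bin (y axis), for regions with GABPA alone (solid line, 1965 regions) and regions with GABPA and ELF1 or ELK4 but no JUND (dashed line, 262 regions). Both lines are highest in the first bin and lower at larger distances, the dashed line with a further rise between 75 and 100 bp, and the 37 and 8 regions with centres over 500 bp apart lie beyond the axis.

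The spacing was also measured where GABPA had company, as a description with no test. In the 262 regions where GABPA was joined by ELF1 or ELK4 but not by JUND, the GABPA centre lay a median of 74 bp from the ETS1 centre (interval 61 to 84 bp). Where GABPA and JUND were both present the median was 99 bp (76.5 to 138.5 bp) over 75 regions. That interval meets the 67 to 78 bp of GABPA alone only at its lower end. GABPA and ETS1 centres lay within 200 bp in 66.7% of the 75 regions, against 85.5% with GABPA alone. They were over 500 bp apart in 10 of the 75, against 37 of the 1965 with GABPA alone. These 75 include 10 regions that also held ELK4, 7 with ELF1 and 2 with both. The other ETS factors had median distances from ETS1 of 74 bp for ELF1 (125 regions) and 68 bp for ELK4 (157 regions) in the regions shared with GABPA. In the 307 ETS1 regions that met JUND but none of the other ETS lists, the JUND centre lay a median of 173 bp from ETS1 (143.5 to 203 bp). The JUND list holds intervals of varying width, with a median of 696.5 bp, so its centres are less exact than those of the windows.

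The single regions ranged from perfect coincidence to separate peaks under one broad ETS1 interval. At chr5:134093945-134095138 (hg19), 1194 bp wide, the GABPA and ETS1 centres fell on the same base, a distance of 0 bp. At chr10:103911350-103912741 they were 0.5 bp apart. At the other end, chr15:91472849-91476328 had its centres 2139.5 bp apart and chr1:156715867-156719159 had them 1981 bp apart. Both of these intervals are over 3 kb wide, at 3480 and 3293 bp, so 1 ETS1 interval can cover an ETS1 peak and a GABPA peak at different places. Only 4 regions held 2 GABPA windows, among them chr19:37957447-37961089 and chr20:62609860-62613189. A further 5 held 2 windows of the second ETS1 list, among them chr16:1820403-1823978 and chr21:18884072-18885997.

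The ETS1 window was only a little nearer to GABPA than the middle of the broad interval was. The GABPA centre lay a median of 88 bp from the midpoint of the first-list interval (82.5 to 93.5 bp), and the ETS1 window itself lay a median of 88.5 bp from that midpoint. GABPA was nearer the ETS1 window in 1075 regions (54.7%, 52.5 to 56.9%) and nearer the midpoint in 887.

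The spacing widened along the GABPA list more than along the ETS1 list. The lists are not ordered by position, and no source used here explains their line order. Cut into 5 groups of 393 regions by line order of the GABPA list, the regions had median centre distances of 52, 65.5, 70.5, 92 and 101 bp from the earliest to the latest group. The share with centres within 100 bp went from 76.3% to 49.9%. Grouped by the first ETS1 list instead, the medians were 65.5, 75, 65.5, 79.5 and 81 bp, a narrower range that did not move in 1 direction. Across the 1965 regions, Spearman's rho of the distance was 0.22 with the GABPA line number and 0.08 with the ETS1 line number. These are correlations across regions of the same lists, given as a description.

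**Figure D2:**
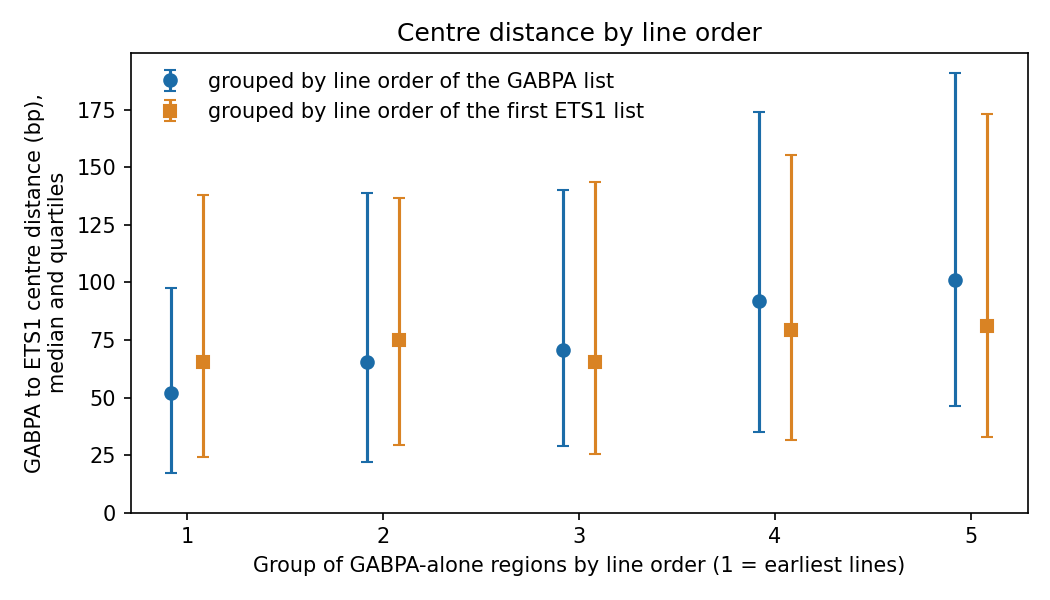
Median distance in bp between GABPA and ETS1 window centres (y axis, bars from the lower to the upper quartile) in 5 groups of 393 regions with GABPA alone (x axis, group 1 from the earliest lines), grouped by the GABPA list (circles) or by the first ETS1 list (squares). The circles climb from 52 to 101 bp, while the squares stay between 65.5 and 81 bp.

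Early lines of the ETS1 list were richer in regions with GABPA alone, and the 2 factors' orders were only loosely related inside the set. Across 5 equal groups of the 8183 ETS1 regions, from the earliest lines to the latest, the share with GABPA alone was 40.3%, 34.8%, 23.1%, 13.4% and 8.49%. This gradient uses the same lists as the rule and carries no test. Within the 1965 regions, Spearman's rho between the first ETS1 list and the GABPA list was 0.25, against 0.87 between the 2 ETS1 lists, which may or may not come from separate immunoprecipitations. The regions at the top of the ETS1 list show this looseness. The first 10 by line order in the first ETS1 list stood between lines 1 and 38 there, but between lines 196 and 2300 of the GABPA list.

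The first region of the ETS1 list, chr19:4790855-4794005, was 3151 bp wide, stood on line 2 of the second ETS1 list and on line 1454 of the GABPA list, and its GABPA centre lay 4 bp from its ETS1 centre. The second, chr16:30932960-30936115, headed the second ETS1 list and stood on line 627 of the GABPA list, with centres 340.5 bp apart. The third, chr19:42745831-42750824, was among the widest at 4994 bp, and its centres were 1679.5 bp apart. Of the first 10, this was the single region with centres over 500 bp apart, and 3 of the 10 had centres within 100 bp. Others of the 10 were chr1:156736028-156738598 with centres 134.5 bp apart, chr11:82996034-82998156 with 50 bp, chr1:153930075-153933592 with 91.5 bp and chr1:156709997-156712073 with 134 bp. The last of these had the earliest GABPA line of the 10, at 196.

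Few regions met the rule by a small overlap with GABPA, but more were lost when near centres replaced overlap. The median overlap between the ETS1 interval and the GABPA window was 497 bp, and 24 of the 1965 regions overlapped by under 400 bp. The regions just inside the rule were chr17:26971540-26972911 with an overlap of 3 bp, chr15:75493511-75495289 with 55 bp and chr6:75993966-75994461 with 150 bp. Among regions met by no other list, those just outside were chr7:131012257-131012957, 28 bp from a GABPA peak, chr14:45602923-45604301 at 517 bp, and chr1:156719981-156722308 at 1050 bp. When each overlap had to cover 50% of the shorter interval, 1951 of the 1965 regions still met the rule, and with peak centres within 200 bp in place of overlap, 1430 did. Dropping the need for the second ETS1 list would add few, since 65 of the 1801 first-list peaks that miss the second list (3.61%, 2.80 to 4.58%) had GABPA alone.

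The rule removes regions that touch an ELF1, ELK4 or JUND peak, so only peaks of these factors outside the interval can lie near. The nearest ELK4 peak to any of them was 1624 bp away, the nearest JUND peak 1623 bp and the nearest ELF1 peak 4768 bp. Within 10 kb, 2.60% (1.94 to 3.40%) had a JUND peak, 0.97% an ELK4 peak and 0.41% an ELF1 peak. For ETS1 regions met by no other list the shares within 10 kb were 3.94% (3.43 to 4.49%), 0.67% and 0.48%. Regions with GABPA alone thus had the lower value for JUND and ELF1 and the higher one for ELK4, with intervals that overlap for ELF1 and ELK4. These shares use lists that entered the rule and were not tested.

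No difference in crowding was detected between regions with GABPA alone and regions met by no other list. Over all ETS1 regions 17.9% had another ETS1 region within 10 kb. With GABPA alone the share was 16.7% (329 of 1965, 15.1 to 18.5%), and with no other list it was 16.6% (893 of 5387, 15.6 to 17.6%). The odds ratio was 1.01 (0.878 to 1.16), and Fisher's exact test gave an adjusted p = 0.860 over 3 two-sided tests. This comparison was chosen after seeing the data. The tests here compare regions of 1 sample per factor, so they say nothing of how cultures vary.

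Neighbouring regions with GABPA alone lay a median of 427633 bp apart on the same chromosome, with quartiles of 106889 and 1508240 bp. Of 1941 neighbouring pairs, 18 were under 5 kb apart. The closest pair lay on chromosome 5, where the interval from 180669895 to 180671933 and the next from 180672732 to 180674427 were separated by 798 bp. Chromosome 17 held the next pair, from 40168676 to 40170280 and from 40171453 to 40172635, with 1172 bp between them.

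The densest stretch lay near the end of the long arm of chromosome 19, a part of the genome known for clusters of zinc finger genes. In the 1 Mb that held the most regions with GABPA alone, 25 of them lay between 57702581 and 58695547. They made up 75.8% (57.7 to 88.9%) of the 33 ETS1 regions there, against 24.0% over all ETS1 regions, and the other 8 met no other list. The median centre distance of the 25 was 75.5 bp and their widths ran from 819 to 1871 bp. Of the 25, 0 held a PANC1 ETS1 peak, so that by a floor of 3 counts a share of 12% remains possible, while 2 of the 33 ETS1 regions held one. The stretch was found by search in these same regions, so its share was not tested.

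By chromosome, the share of ETS1 regions with GABPA alone ran from 17.4% on chromosome 21 (16 of 92, 10.3 to 26.7%) to 30.2% on chromosome 20 (70 of 232, 24.3 to 36.5%). Of 23 chromosomes compared with regions met by no other list, 2 (8.70%) passed Fisher's exact test after Benjamini-Hochberg adjustment, and 3 had an unadjusted p under 0.05. Chromosome 19 took 9.87% of the regions with GABPA alone (194) and 7.59% of those met by no other list (409), which gives odds of 1.33 times the comparison set (1.11 to 1.60, adjusted p = 0.0454 by Fisher's exact test). Chromosome 10 took 3.31% (65) and 4.86% (262), or 0.669 times the odds (0.499 to 0.886, adjusted p = 0.0454 by the same exact test). Each call held under some alternatives and not under others. Without the dense 1 Mb stretch the chromosome 19 odds ratio was 1.18 (Fisher's exact test, adjusted p = 0.481). Pooled within 5 groups by ETS1 line order it was 1.23 (exact Cochran-Mantel-Haenszel test, adjusted p = 0.160). For chromosome 10 the pooled value was 0.624, still under the threshold of 0.05 by the exact test (adjusted p = 0.0492). With the second ETS1 list as the base both chromosomes had an exact test's adjusted p of 0.0680. The odds ratio of chromosome 20, at 1.46 (1.07 to 1.97), did not pass after adjustment (p = 0.0973, exact). With peak centres within 200 bp in place of overlap, chromosome 19 was at 1.44 and past the threshold (adjusted p = 0.0140, exact), while chromosome 10 was at 0.730 and not past it (adjusted p = 0.389, exact). Chromosome Y was left out of these tests.

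**Figure D3:**
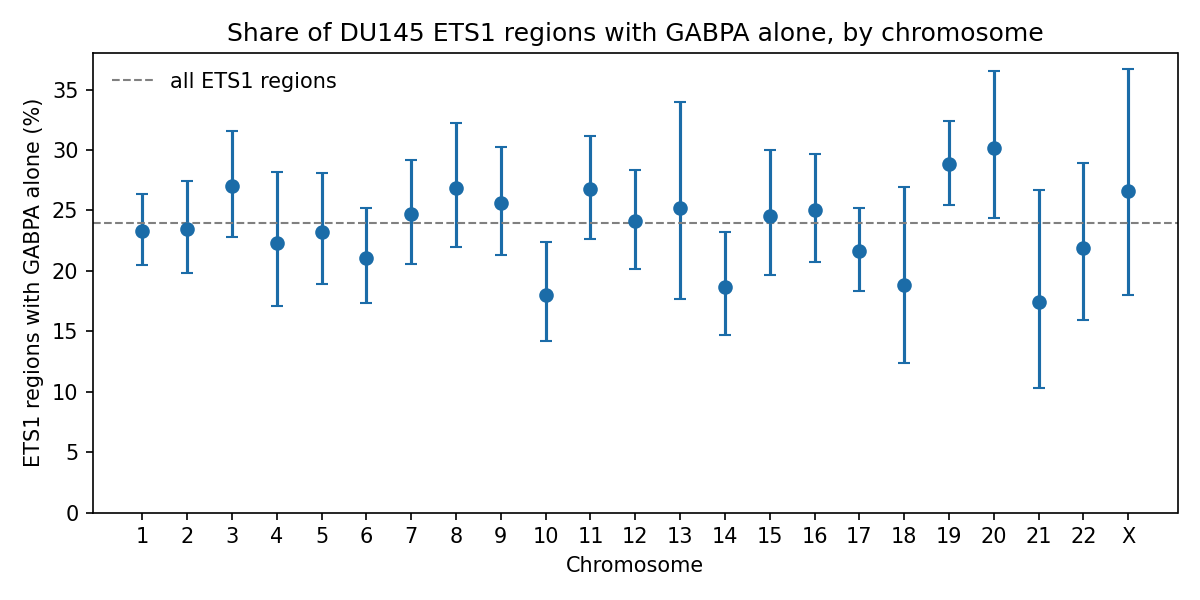
Percentage of DU145 ETS1 regions with GABPA alone (y axis) on each chromosome (x axis), as points with 95% Clopper-Pearson intervals, and over all ETS1 regions (dashed line, 24.0%). Chromosomes 20 and 19 stand highest at 30.2% and 28.8%, and chromosomes 21 and 10 lowest at 17.4% and 18.0%.

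The intervals were wider than those met by no other list over the whole set, and narrower at matched line order. Regions with GABPA alone had a median first-list width of 1332 bp (quartiles 1134 and 1594 bp, range 461 to 6237 bp), against 1195 bp (932 and 1535 bp) for regions met by no other list and 1544 bp for those with GABPA and ELF1 or ELK4. Early lines hold wider intervals, and regions with GABPA alone favour early lines, with a median line of 2470 against 5013. Within the first group by line order the medians were 1599 bp with GABPA alone and 1713 bp with no other list. In the second they were 1327.5 and 1442 bp, in the third 1191.5 and 1273 bp, and in the fourth 1040 and 1079 bp. In the fifth group the order turned, with 839 against 798.5 bp. A wide interval meets any list more easily, so widths are bound up with the rule and were not tested.

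**Figure D4:**
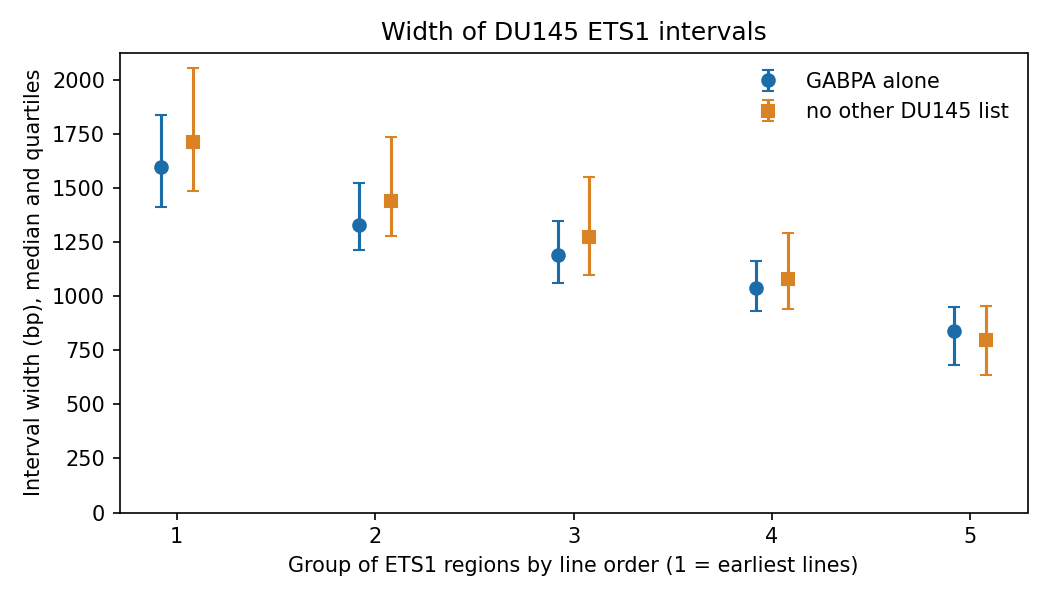
Median width in bp of first-list ETS1 intervals (y axis, bars from the lower to the upper quartile) in 5 groups of all 8183 ETS1 regions by line order (x axis, group 1 from the earliest lines), for regions with GABPA alone (circles) and regions met by no other DU145 list (squares). The circles lie below the squares in groups 1 to 4 and above in group 5, with quartile ranges that overlap in every group.

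The widest regions show the breadth that 1 ETS1 interval can reach. The widest with GABPA alone, chr17:7140507-7146743, spanned 6237 bp and had its GABPA centre 158 bp from ETS1. After chr19:42745831-42750824, described above, came chr11:65624114-65628740 at 4627 bp with centres 69.5 bp apart and a PANC1 peak. Then came chr8:146014543-146019026 at 4484 bp with centres 45.5 bp apart, and chr7:150753990-150758343 at 4354 bp with centres 54.5 bp apart. In these last 3 the GABPA centre was close to an ETS1 centre although the interval left room for separate sites. The chromosome 8 interval held 2 windows of the second ETS1 list, and 45.5 bp is the distance to the nearer one.

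The PANC1 ETS1 list took no part in the rule, so a comparison with it is not fixed by the rule, although it was chosen with earlier results known. The question was whether sites shared with GABPA in DU145 recur as ETS1 sites in a second epithelial line. Over all DU145 ETS1 regions 3.61% held a PANC1 ETS1 peak. With GABPA alone the share was 2.54% (50 of 1965, 1.89 to 3.34%), and with no other list it was 3.12% (168 of 5387, 2.67 to 3.62%). The odds ratio of 0.811 (0.577 to 1.12) did not pass the threshold (adjusted p = 0.336 by Fisher's exact test). It was 0.476 (0.337 to 0.670, exact Cochran-Mantel-Haenszel test, two-sided, p = 1.63e-05, unadjusted) when the 2 sets were compared within 5 groups by ETS1 line order. Pooled within 5 groups by width it was 0.741 and not past the threshold (exact p = 0.0850). With the first ETS1 list alone and no groups it was 0.994, and among the wider peaks of every list it turned to 1.44 (Fisher's exact p = 0.158).

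The shares in both sets were highest among the early lines, and the measured share was lower with GABPA alone in each group. No group was tested singly, so a lower share is not established in any 1 group. The 2 intervals overlap in each, which does not show that the shares are alike. In the first group 37 of 659 regions with GABPA alone (5.61%, 3.98 to 7.66%) held a PANC1 peak, against 59 of 662 with no other list (8.91%, 6.85 to 11.3%). In the second group the shares were 1.58% (9 of 570) and 3.51% (31 of 882), and in the third 1.06% (4 of 378) and 2.56% (29 of 1131). In the fourth group 0 of 219 regions with GABPA alone held one, so that by the 3-count floor a share of 1.37% remains possible, against 1.99% (26 of 1306) with no other list. In the fifth, 0 of 139 did, so that 2.16% remains possible, which is above the 1.64% (23 of 1406) with no other list. PANC1 peaks favour the early ETS1 lines, where regions with GABPA alone are also gathered. Earlier results of these data on GABPA as a whole had the same direction at matched line order, so this is not independent evidence for it. The PANC1 list holds 409 peaks, and its depth is unknown.

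**Figure D5:**
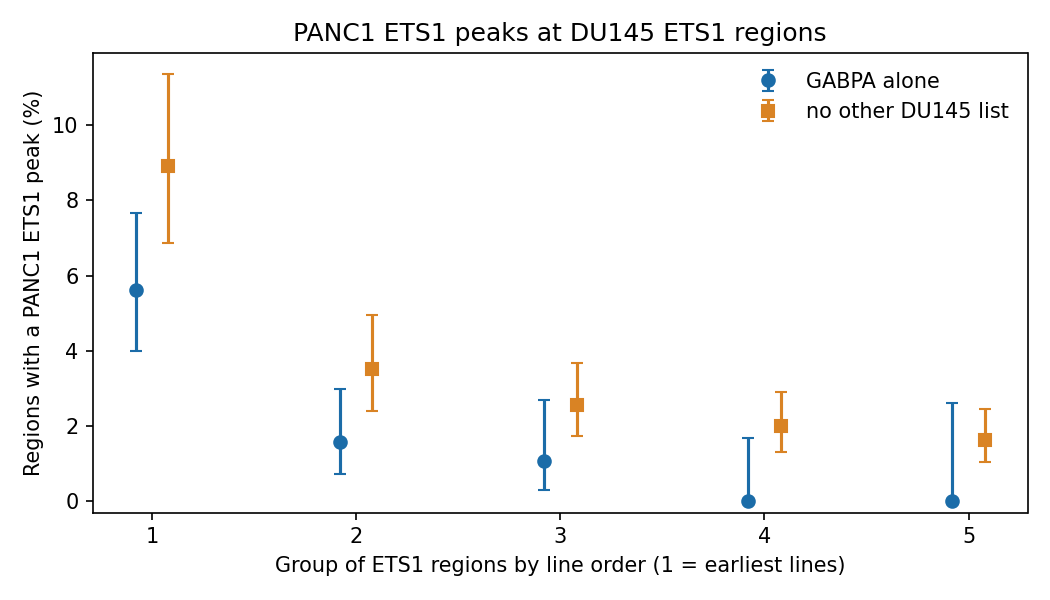
Percentage of DU145 ETS1 regions that hold a PANC1 ETS1 peak (y axis) in 5 groups by ETS1 line order (x axis, group 1 from the earliest lines), for regions with GABPA alone (circles) and regions met by no other DU145 list (squares), with 95% Clopper-Pearson intervals. The circles lie below the squares in each group, from 5.61% against 8.91% in group 1 to 0% against 1.64% in group 5. The 2 intervals overlap in each group, and no group was tested singly.

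The presence of ELF1 or ELK4 beside GABPA did not go with a detectable difference in PANC1 overlap. Of the 262 regions with GABPA and ELF1 or ELK4, 10 (3.82%, 1.85 to 6.91%) held a PANC1 peak, so that the odds with GABPA alone were 0.658 times theirs (0.325 to 1.47, adjusted p = 0.336 by Fisher's exact test). With 10 such regions the interval is wide, and the test does not show that the 2 sets are alike. At matched line order the odds ratio was 0.922 (0.457 to 1.86). For comparison, 17.3% (9.57 to 27.8%) of the 75 regions with GABPA and JUND and 14.7% (10.9 to 19.1%) of the 307 with JUND alone held a PANC1 peak, values given without a test. With regions that hold JUND kept in both sets, the odds ratio against regions with ELF1 or ELK4 was 0.481 (0.268 to 0.911, Fisher's exact p = 0.0166, unadjusted).

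The 50 regions with GABPA alone that recurred in PANC1 were wide and early in the ETS1 list, with a median width of 1735 bp against 1325 bp for the other regions of the set, and a median ETS1 line of 827 against 2526. Their place in the GABPA list differed little, with median lines of 1102.5 and 1197. They covered 51 PANC1 peaks, 12.5% (9.43 to 16.1%) of that list. Chromosome 19 held 10 of them, which is 5.15% of its 194 regions with GABPA alone, beside 5.13% (21 of 409) of its regions met by no other list. Chromosomes 4, 5, 9, 10, 13, 18 and 21 held 0 of their 51, 80, 98, 65, 30, 23 and 16. The share over the whole set was 2.54%. With so few regions on each, a count of 0 does not set a chromosome apart, and this was not tested.

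In these 50 regions the ETS1 windows of the 2 lines lay near each other. The PANC1 centre was a median of 76.75 bp (60 to 174 bp) from the DU145 ETS1 centre, and the GABPA centre a median of 72 bp (54.5 to 92.5 bp) from it. The PANC1 centre lay a median of 117.5 bp from the GABPA centre. In the 168 regions met by no other DU145 list the PANC1 centre was a median of 130.75 bp from the DU145 centre. The difference of 54 bp between 76.75 and 130.75 bp did not pass the threshold (permutation test with 100000 resamples, two-sided, p = 0.0762, chosen after seeing the data).

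Of the first 10 regions with GABPA alone by ETS1 line order, 5 held a PANC1 peak, against 3.61% of all DU145 ETS1 regions. Early lines held more PANC1 peaks in both sets. In the earliest of the 5 groups by line order the share was 5.61% with GABPA alone and 8.91% with no other list. Whether the count of 5 sets regions with GABPA alone apart from other early ETS1 regions was not tested. At chr11:82996034-82998156 the PANC1 centre lay 7 bp from the DU145 ETS1 centre, at chr16:30932960-30936115 it lay 40 bp away, at chr19:3184469-3187040 48 bp, at chr19:4790855-4794005 60 bp, and at chr8:67578281-67580602 94.5 bp. The chromosome 16 region is one where GABPA was farther off, at 340.5 bp, than ETS1 of the other line. Further down the list, chr19:58837467-58839413 had centres 16 bp apart between the lines and 74.5 bp between ETS1 and GABPA. The reverse was seen at chr14:50358877-50361439, with 254 bp between the lines and 8 bp between ETS1 and GABPA. Other regions with a PANC1 peak were chr14:24700758-24702845 (82.5 bp between the lines, 92.5 bp from ETS1 to GABPA), chr16:12008510-12010801 (156 and 56 bp) and chr19:50144479-50146098 (40.5 and 49.5 bp).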

How the data were processed

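ChIP-seq peak lists of 6 immunoprecipitations were used. The deposited files hold 3 columns, the chromosome, start and end of each interval, with no score, read number or fold, so the depth behind each list is unknown. The coordinates are on hg19 per the labels. Bowtie2 2.0.6 is named, with no role, in the submitters' processing notes. Peak caller, threshold and use of the inputs are not stated there.

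Overlaps were computed in Python 3.11.15, NumPy 2.4.6, SciPy 1.17.1 and statsmodels 0.14.6, and plots drawn with Matplotlib 3.10.9. Starts are printed counted from 1. Differences between sets of regions were tested by Fisher's two-sided exact test, with conditional odds ratios, exact 95% intervals and Benjamini-Hochberg adjustment over 3 tests (23 for chromosomes). Pooled odds ratios are Mantel-Haenszel estimates with approximate intervals and an exact conditional p. These steps and the overlap search were tested on simulated data. Regions were named by line order, width, PANC1 overlap and GABPA overlap. Those with the nearest and farthest centres, with double windows or forming the closest pairs were picked after their values were seen. The members, lists and tests were chosen with earlier results of these data known. Gene starts, gene lists, motifs and sequences were planned but not analysed here, because no genome or annotation of the files' build was at hand.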

Additional observations from a re-analysis of the deposited data

How the results depend on the processing

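The number of regions with GABPA alone stayed between 1458 and 2030 under 9 of 10 alternatives and was 565 among the wider peaks of every list, which drops narrower peaks from every list. The median distance between GABPA and ETS1 centres stayed between 70 and 73.5 bp under 8 of 10. Of these 8, the first ETS1 list alone could not differ, since its distances came from the same 1965 regions. The median distance was 78.5 bp with peaks under 5 kb apart merged, and 57 bp with peak centres within 200 bp. In that last setting both centres had to lie within 200 bp of the centre of the first-list interval, which limits the distance between them. For PANC1 peaks with GABPA alone against no other list, the odds ratio was 0.476 at matched line order, and, in settings chosen after seeing the data, 0.473 within 10 groups, 0.423 by line order of the second ETS1 list, 0.459 with intervals of 500 bp, 0.479 without chromosome 6 and 0.448 without chromosome 19, each past the threshold. It turned to 1.44 (Fisher's exact p = 0.158) among the wider peaks, where the cause was not tested, and was 0.994 with the first ETS1 list alone. In the other 9 settings it lay between 0.741 and 0.848, not past the threshold. Against regions with ELF1 or ELK4 it was 0.481 and past the threshold with JUND regions kept in, and turned to 1.31 with peak centres within 200 bp (exact p = 1, 2 regions with a PANC1 peak in the smaller set) and to 1.005 within 5 groups by width. Calls for chromosomes numbered 2 as reported, 1, chromosome 10, at matched line order, 0 without the densest 1 Mb, 0 with the second ETS1 list as the base and 1, chromosome 19, with peak centres within 200 bp. The PANC1 comparison thus depends on line order, whose meaning is unknown. The planned results on gene starts and motifs were not run. No paired analysis was possible because each group has 1 sample.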
